A study of Rattus norvegicus with 45 samples.

Results

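The circadian clock of rat liver was followed through 10 of its genes, out of 14217 genes on the array: Dbp, Tef, Nr1d1, Nr1d2, Per1, Per2, Per3, Cry1, Npas2 and Clock. They were taken as every probe set whose annotated gene symbol is one of these names, which gave 19 of the 31042 probe sets tested. Each gene is described by its probe set of highest mean score, and the remaining probe sets are set beside it where they differ.

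The liver clock is a loop of transcription factors. CLOCK or its relative NPAS2 pairs with BMAL1 and binds E-boxes in target genes, among them the Per, Cry, Nr1d and PAR bZIP genes. The PER and CRY proteins return to block that pair. NR1D1 and NR1D2, also called REV-ERB alpha and beta, are nuclear receptors that repress Bmal1, Clock, Npas2 and Cry1 through ROR elements. DBP and TEF are PAR bZIP factors that act through D-boxes on output genes, including genes of drug metabolism. In rodent liver most of these genes cycle each day, and the Bmal1 arm peaks in the opposite phase to Dbp and the Nr1d genes.

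Liver RNA came from adult male Sprague-Dawley rats of 10 weeks dosed by gavage, and was measured on Affymetrix Rat Genome 230 2.0 arrays. The treated rats had been given the triazole fungicide myclobutanil at 225 mg/kg/day or the triazole fungicide triadimefon at 175 mg/kg/day, and were set against control rats. Each kind of rat was sampled at 6 h, 24 h and 14 days, and the titles give 5 arrays for each of the 9 groups, 45 in all. The labels conflict: the series text counts 15 livers and the labelling protocol 3 rats per treatment group, so the p-values below measure the spread between these arrays. A liver below is an array so titled. The doses are unequal, and what the controls received is not given in the sources used here. The labels give the exposure time and no clock time of collection, so exposure time and hour of collection cannot be told apart.

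The values are the scores the authors deposited, on a logarithm-like scale whose base is not stated. Differences are in score units, where 1 unit is 2-fold if the base is 2, and ± marks the standard error of the limma fit. Of 10 hepatocyte markers, 9 were measured, and each had a mean score above 0 in all groups. The mean score of that list lay between 3.61 and 4.68 over the 45 livers. No 2 value columns were identical. Low scores near 0 lie close to the median of the array, and scores of different probe sets are not set against each other.

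RefSeq promoter windows of the rat assembly GRCr8, from 250 bases before to 50 bases after a gene's start, were held for 9 of the 10 genes, 11 windows in all. They were searched on both strands for the E-box CACGTG, its variant CACGTT, the D-box TTATGTAA or TTACGTAA, the ROR element TAGGTCA or AAGGTCA and the cyclic AMP element TGACGTCA. The stretches below are shown because they hold the letters by which the loop's factors are known to act, in members that differed between control times (Nr1d1, Tef), in a member that passed in no comparison of groups (Per2), and in Bmal1, the known target of the Nr1d receptors. Capitals mark the match. The Nr1d1 stretches lie at chr10:84231954-84232013 for the first listed start and chr10:84229613-84229672 for the other, both on the minus strand. In the first of these the capitals are CACGTT read on the opposite strand. The Tef stretch is chr7:115206602-115206661 on the plus strand, the Per2 stretch chr9:99497023-99497212 on the minus strand, and the Bmal1 stretch chr1:176766285-176766327 on the plus strand.
Nr1d1, first start: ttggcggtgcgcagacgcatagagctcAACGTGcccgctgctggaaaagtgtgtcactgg
Nr1d1, other start: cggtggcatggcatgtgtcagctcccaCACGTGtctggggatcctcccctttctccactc
Tef: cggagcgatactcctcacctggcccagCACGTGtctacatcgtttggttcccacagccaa
Per2: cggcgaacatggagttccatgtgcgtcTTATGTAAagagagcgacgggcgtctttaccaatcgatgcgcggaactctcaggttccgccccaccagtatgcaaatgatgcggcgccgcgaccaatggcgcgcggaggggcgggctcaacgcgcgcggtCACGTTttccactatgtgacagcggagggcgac
Bmal1: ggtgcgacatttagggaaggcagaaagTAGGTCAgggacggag
The Tef E-box began 198 bases before the start, and that of the other Nr1d1 start 191 bases before it. The Per2 window held the D-box 192 bases and the E-box variant 62 bases before the start. The windows of Dbp, Nr1d2, Per1, Per3, Npas2 and Clock held none of the 5 motifs, which says only that these letters are not in these windows. Of all 33469 rat promoter windows of 300 bases, 6.42% held the E-box, 4.83% the variant, 1.01% the D-box, 7.07% the ROR element and 1.83% the cyclic AMP element.

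Control livers differed strongly in clock genes between exposure times. At 24 h against 6 h, 8 of the 10 genes passed the test (limma, adjusted p under 0.05), beside 2.78% of all probe sets. Dbp, Tef, Nr1d1, Nr1d2 and Per3 were lower at 24 h, as were 0.741% of all probe sets, and Cry1, Npas2 and Clock were higher, as were 2.04%. At 14 days against 6 h, 7 of the 10 passed, beside 3.33% of all probe sets (2.15% lower and 1.19% higher), with the same genes in the same directions except Clock. Between controls at 14 days and at 24 h 0 of 10 passed, beside 0.238% of all probe sets and 6105 with an unadjusted p under 0.05. The limma intervals for these differences are drawn in the plot of control livers by exposure time.

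**Figure D1:**
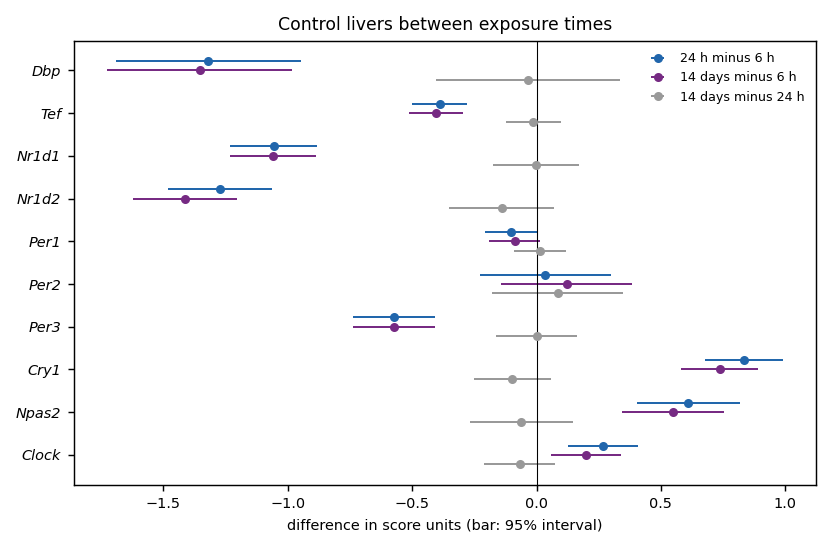
Difference in score units between control livers of 2 exposure times (x axis) for each clock gene (y axis), with points for the difference of means of 5 livers each and bars for its 95% interval. Dbp, Tef, Nr1d1, Nr1d2 and Per3 lie to the left of 0 and Cry1 and Npas2 to the right in both comparisons with 6 h, while all 10 intervals of 14 days minus 24 h include 0.

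Dbp, the output factor, had scores between -0.08 and 0.08 in the 5 control livers at 24 h, against 0.99, 1.25, 1.54, 1.51 and 1.26 at 6 h. The groups did not overlap, and the difference was -1.32 ± 0.18 (adjusted p = 1.3e-05). Tef, its relative, averaged 0.40 ± 0.04 at 24 h and 0.79 ± 0.06 at 6 h (SD, n = 5 each; limma adjusted p = 1.4e-05), and all 3 Tef probe sets were lower. In bulk liver RNA, fewer cells of a type and less RNA per cell cannot be told apart.

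Nr1d1 scored -0.17, -0.23, -0.18, -0.15 and -0.19 in control livers at 24 h, against 0.92, 0.81, 0.87, 0.90 and 0.88 at 6 h. No liver of either time came near the other group, and the difference was -1.06 ± 0.09 (limma adjusted p = 4.8e-11). Nr1d2 differed by -1.27 ± 0.10 with the same adjusted p, and each of its 3 probe sets was lower at 24 h. At 14 days the same 2 receptors stood at -1.06 ± 0.09 and -1.41 ± 0.10 relative to 6 h (adjusted p = 3.2e-11 and 5.9e-12).

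Among the inhibitors of the loop the Per and Cry genes went different ways. Per3 differed by -0.57 ± 0.08 at 24 h against 6 h (limma adjusted p = 1.9e-05), although its other probe set passed only at 14 days, at -0.11 ± 0.03 (adjusted p = 0.047). Cry1 scored 0.91, 1.13, 0.81, 0.67 and 0.80 in control livers at 24 h, and at most 0.05 in the 5 control livers at 6 h. Its difference was 0.83 ± 0.08 (limma adjusted p = 1.4e-09), with every later liver far above every 6 h liver. Per1 and Per2 passed in none of the control comparisons: Per1 differed by -0.10 ± 0.05 (adjusted p = 0.38) and Per2 by 0.04 ± 0.13 (adjusted p = 0.96) at 24 h against 6 h.

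Of the activators, Npas2 was higher by 0.61 ± 0.10 at 24 h than at 6 h (limma adjusted p = 0.00029) and by 0.55 ± 0.10 at 14 days (adjusted p = 0.0012). Clock was higher by 0.27 ± 0.07 at 24 h (adjusted p = 0.025) and by 0.20 ± 0.07 at 14 days, which did not pass (adjusted p = 0.11). A second Clock probe set was also higher at 24 h, by 0.18 ± 0.05 (adjusted p = 0.025), and 2 others did not pass. The Clock call ended when any 1 of control livers 3 and 4 at 6 h or 2 and 5 at 24 h was left out, with adjusted p up to 0.094, and also with the array file-name ending in the fit (adjusted p = 0.09). The median size of the 10 differences at 24 h against 6 h was 0.592, beside 0.0249 over all probe sets.

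Against controls of the same time, clock genes passed the test in triadimefon livers at 24 h (Cry1) and at 14 days (Nr1d1, Nr1d2, Per3, Cry1 and Npas2), and in no other treated group. The differences of all 10 genes are drawn in the plot of compounds against control.

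**Figure D2:**
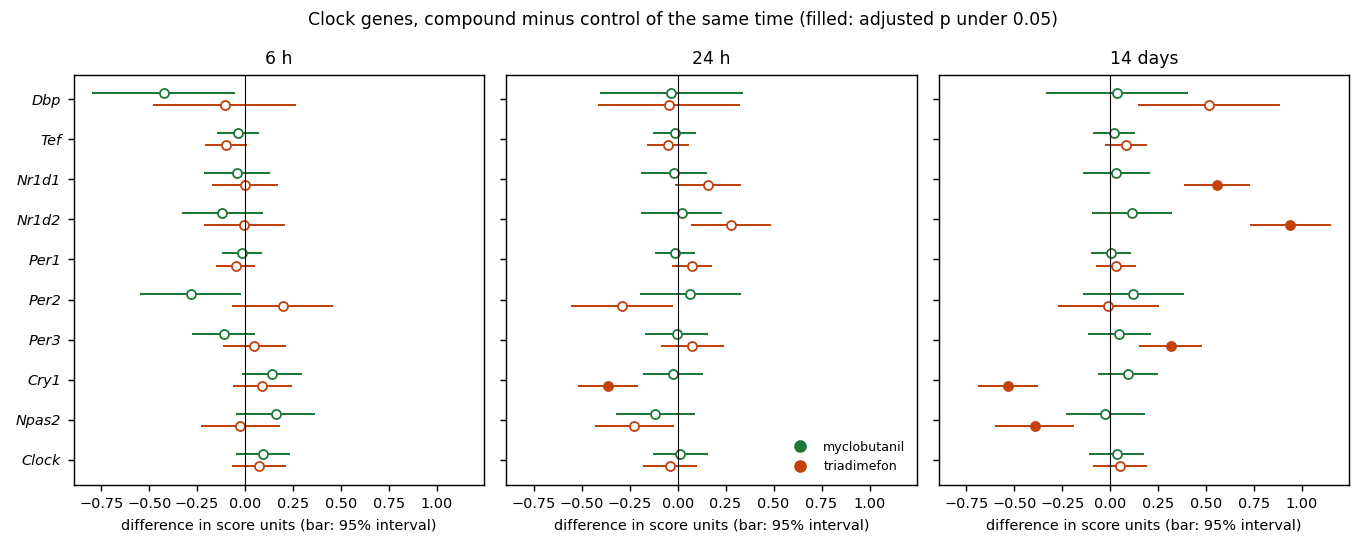
Difference of each clock gene between compound and control livers of the same time in score units (x axis), with points for the difference of means of 5 livers each, bars for its 95% interval and filled points where the limma adjusted p is under 0.05. Filled points appear only for triadimefon: Cry1 at 24 h, and Nr1d1, Nr1d2, Per3, Cry1 and Npas2 at 14 days.

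At 6 h no clock gene passed the test with either compound. With triadimefon 0 of 10 genes passed (limma), beside 0.915% of all probe sets and 3534 with an unadjusted p under 0.05. With myclobutanil 0 of 10 passed, beside 0.38% and 2624 with an unadjusted p under 0.05. The triadimefon differences were close to 0 for Nr1d1 (95% interval -0.17 to 0.17) and Nr1d2 (-0.21 to 0.21), the 2 receptors.

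The 6 h livers of rats given myclobutanil were uneven in Dbp and Per3. Their array file-name endings also differed, 11 for livers 1 and 2 and 12 for livers 3, 4 and 5. Dbp scored 1.04, 0.40, 0.11, 1.69 and 1.19 in myclobutanil livers, against 0.99, 1.25, 1.54, 1.51 and 1.26 in controls. Livers 2 and 3 were below all controls and liver 4 above them, and the difference of -0.43 ± 0.18 did not pass (limma adjusted p = 0.49). Per3 scored 0.31, 0.09, 0.03, 0.71 and 0.50 in the same myclobutanil livers, against 0.28, 0.36, 0.46, 0.55 and 0.54 in controls, with livers 2 and 3 again the lowest and liver 4 again the highest. Per2 scored 0.24, 0.74 and 0.28 in myclobutanil livers 1, 4 and 5 and at or just under 0 in livers 2 and 3, against 0.40, 0.51, 0.42, 0.72 and 0.57 in controls (-0.28 ± 0.13, adjusted p = 0.53). The second Per2 probe set varied less. Its group means spanned 0.12 over all 9 groups, against 0.52 for the main one.

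Triadimefon livers at 24 h were lower than their controls in Cry1, the only 1 of 10 genes whose main probe set passed (limma), beside 7.98% of all probe sets, 5.75% lower and 2.24% higher. Cry1 scored 0.57, 0.23, 0.69, 0.40 and 0.61 in triadimefon livers, against 0.91, 1.13, 0.81, 0.67 and 0.80 in controls. All 5 treated livers were below the control mean, and the groups overlapped by treated liver 3 and control liver 4. The difference was -0.36 ± 0.08 (adjusted p = 0.0021), which missed the threshold with only these groups in the fit (adjusted p = 0.096).

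Nr1d2 scored 0.28, 0.52, 0.18, 0.78 and 0.68 in triadimefon livers at 24 h, against 0.21, 0.19, 0.30, 0.12 and 0.22 in controls. Livers 2, 4 and 5 were above all controls, and the difference of 0.28 ± 0.10 did not pass (limma adjusted p = 0.093). A second Nr1d2 probe set did, at 0.30 ± 0.09 (adjusted p = 0.035), and the third gave 0.12 ± 0.04 (adjusted p = 0.092). Nr1d1 differed by 0.16 ± 0.09 (adjusted p = 0.28). Npas2 and Per3 values did not overlap between triadimefon and control livers at 24 h, yet their differences of -0.23 ± 0.10 and 0.08 ± 0.08 did not pass (adjusted p = 0.17 and 0.63). How common such a lack of overlap was over all probe sets is not given here. Per2 differed by -0.29 ± 0.13 (adjusted p = 0.17), with all 5 treated livers below the control mean.

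Triadimefon livers at 14 days differed from their controls in 5 of the 10 clock genes. Nr1d1, Nr1d2 and Per3 were higher and Cry1 and Npas2 lower (limma, adjusted p under 0.05), beside 6.69% of all probe sets, 3.89% higher and 2.8% lower. Dbp, Tef, Per1, Per2 and Clock did not pass. For 4 of the 5 called genes the 2 groups did not overlap. The share of all probe sets without overlap is not given here, so this count has no background beside it. The median size of the 10 differences was 0.354, beside 0.0361 over all probe sets.

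Nr1d2 scored 1.08, 0.95, 0.50, 1.41 and 1.09 in triadimefon livers at 14 days, against 0.12, -0.06, 0.05, 0.17 and 0.06 in control livers. Every treated liver lay above every control liver. The difference was 0.94 ± 0.10 (limma adjusted p = 9.3e-08), and the other 2 probe sets gave 0.78 ± 0.09 and 0.31 ± 0.04, both called. Nr1d1 scored 0.32, 0.22, -0.08, 0.85 and 0.55 in triadimefon livers, against -0.17, -0.21, -0.21, -0.19 and -0.15 in controls. The control livers were tightly grouped and the treated livers were spread, with liver 3 just above the controls and liver 4 close to the 6 h control level. The difference was 0.56 ± 0.09 (adjusted p = 5.8e-05).

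Cry1, the inhibitor that NR1D1 is known to repress, scored 0.24, 0.26, 0.43, 0.06 and 0.17 in triadimefon livers at 14 days, against 0.84, 0.82, 0.78, 0.60 and 0.78 in controls. It was lower in each treated liver than in any control liver, and the difference was -0.53 ± 0.08 (limma adjusted p = 2.1e-05). Npas2 scored 0.10, 0.23, 0.67, -0.29 and 0.22 in triadimefon livers, against 0.60, 0.55, 0.65, 0.50 and 0.60 in controls. Treated livers 1, 2, 4 and 5 were below all controls and liver 3 above all of them, and the difference was -0.39 ± 0.10 (adjusted p = 0.016). Per3 scored 0.22, 0.02, -0.09, 0.53 and 0.22 in triadimefon livers, against -0.12, -0.13, -0.20, -0.14 and -0.10 in controls, a difference of 0.32 ± 0.08 (adjusted p = 0.015). The second Per3 probe set gave 0.08 ± 0.03 and did not pass (adjusted p = 0.14).

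The Per3 and Npas2 calls rested on triadimefon liver 4. Without it Per3 differed by 0.23 (limma adjusted p = 0.082) and Npas2 by -0.27 (adjusted p = 0.085). With only the 2 groups compared in the fit, both also missed the threshold, at adjusted p = 0.058 for Per3 and 0.088 for Npas2. The calls of Nr1d1, Nr1d2 and Cry1 held in each of these repeats.

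Of the genes that did not pass, Dbp had the widest spread. It scored 0.46, 0.19, -0.02, 1.41 and 0.32 in triadimefon livers at 14 days, against values between -0.13 and 0.01 in controls. Treated livers 1, 2, 4 and 5 were above all controls and liver 3 was among them, and the difference of 0.52 ± 0.18 had a limma adjusted p of 0.077 and a 95% interval of 0.15 to 0.89. Tef differed by 0.08 ± 0.05 (adjusted p = 0.38), Per1 by 0.03 ± 0.05 (adjusted p = 0.76), Per2 by -0.01 ± 0.13 (adjusted p = 0.98) and Clock by 0.05 ± 0.07 (adjusted p = 0.71). The interval for Per2 ran from -0.27 to 0.25, so these livers leave room for differences of that size.

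The 14-day livers were also placed, gene by gene, on the gap between 2 control groups, with the control mean at 14 days as 0% and the control mean at 6 h as 100%, for the 7 genes that differed between those controls. The median over the 7 genes was 62.0%, 38.4%, 7.9%, 97.6% and 65.7% in triadimefon livers 1 to 5. It lay between 2.9% and 6.9% in myclobutanil livers and between -2.0% and 1.9% in control livers of that time. Liver 4 ran from 76.9% for Tef to 158.1% for Npas2. Liver 3 ran from -16.2% for Npas2 to 46.1% for Cry1. These percentages use the 14-day controls on both sides and carry no test.

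**Figure D3:**
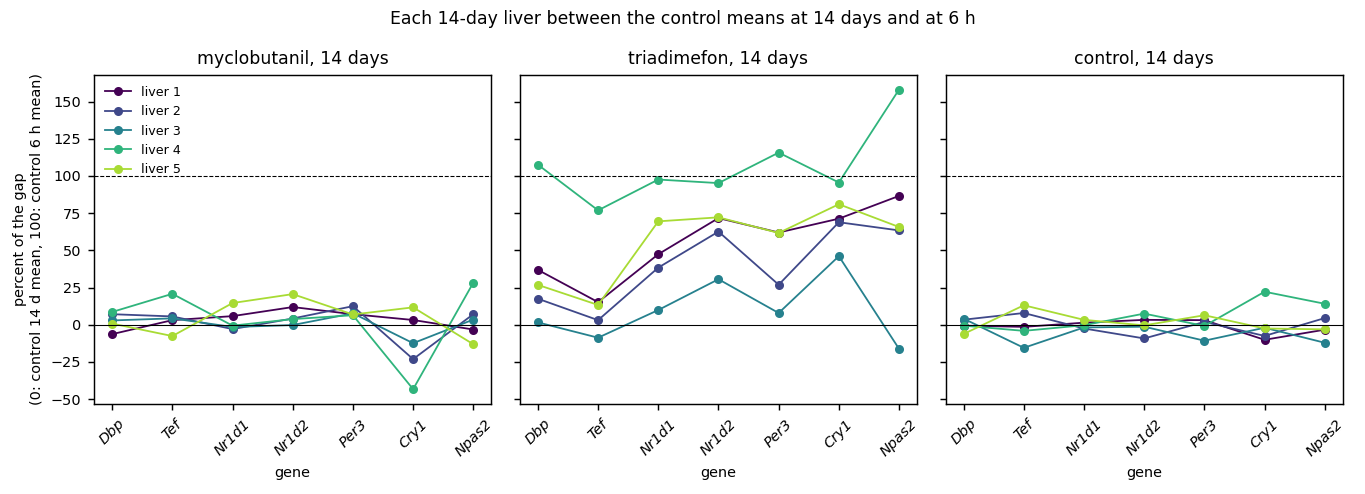
Position of each liver at 14 days on the gap between control means (y axis, percent, with 0 for controls at 14 days and 100 for controls at 6 h) for 7 clock genes (x axis), with 1 line per liver. Triadimefon liver 4 lies between 76.9% and 158.1%, liver 3 between -16.2% and 46.1%, while myclobutanil livers lie between -43.3% and 28.3% and control livers between -15.5% and 22.2%.

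A comparison free of shared arrays gives the same genes side by side. Controls at 24 h against 6 h and triadimefon against control at 14 days have no array in common, although 1 fit supplied the spread for both. All 5 genes called with triadimefon at 14 days were also called between those controls, each in the opposite direction: Nr1d1 0.56 with triadimefon and -1.06 between controls, Nr1d2 0.94 and -1.27, Per3 0.32 and -0.57, Cry1 -0.53 and 0.83, and Npas2 -0.39 and 0.61. Over all probe sets 117 passed in both, which is 5.64% of the 2076 called with triadimefon and 13.6% of the 863 called between controls, and 108 of the 117 were opposite in sign. For myclobutanil at 14 days 17 passed in both, 6.91% of 246 and 1.97% of 863, of which 1 was opposite. No test was made of these overlaps.

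Whether the response to triadimefon changed with time was tested directly. The triadimefon difference was larger at 14 days than at 24 h for Nr1d2, by 0.66 ± 0.15 (limma adjusted p = 0.0033), and for Nr1d1, by 0.40 ± 0.12 (adjusted p = 0.026), 2 of 10 genes beside 12.7% of all probe sets and 7.91% in that direction. For Cry1 it was more negative at 24 h than at 6 h, by -0.45 ± 0.11 (adjusted p = 0.015), 1 of 10 genes beside 3.13% and 2.58% in that direction. Its further difference between 14 days and 24 h did not pass (-0.17 ± 0.11, adjusted p = 0.29). The Nr1d1 call ended without any 1 of triadimefon livers 1 and 3 at 24 h or 4 and 5 at 14 days (adjusted p up to 0.06). It also ended with only the groups compared in the fit. The Cry1 call ended with the array file-name ending in the fit (adjusted p = 0.052), with arrays of ending 11 alone and with only the groups compared.

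With myclobutanil no clock gene passed at the later times either. At 24 h 0 of 10 genes passed (limma), beside 8.47% of all probe sets and 6800 with an unadjusted p under 0.05. At 14 days 0 of 10 passed, beside 0.792% and 4070 with an unadjusted p under 0.05. At 24 h the median size of the 10 differences was 0.0196, beside 0.0318 over all probe sets. At 14 days the Nr1d1 difference was 0.03 ± 0.09 with a 95% interval of -0.14 to 0.21, that of Nr1d2 0.11 ± 0.10 with an interval of -0.10 to 0.32, and that of Cry1 0.09 ± 0.08 with an interval of -0.06 to 0.25. The change of the myclobutanil difference with time was tested too. Between 24 h and 6 h 0 of 10 passed, beside 1.75% of all probe sets and 4047 with an unadjusted p under 0.05. Between 14 days and 24 h 0 of 10 passed, beside 4.56% and 6661 with an unadjusted p under 0.05.

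**Figure D4:**
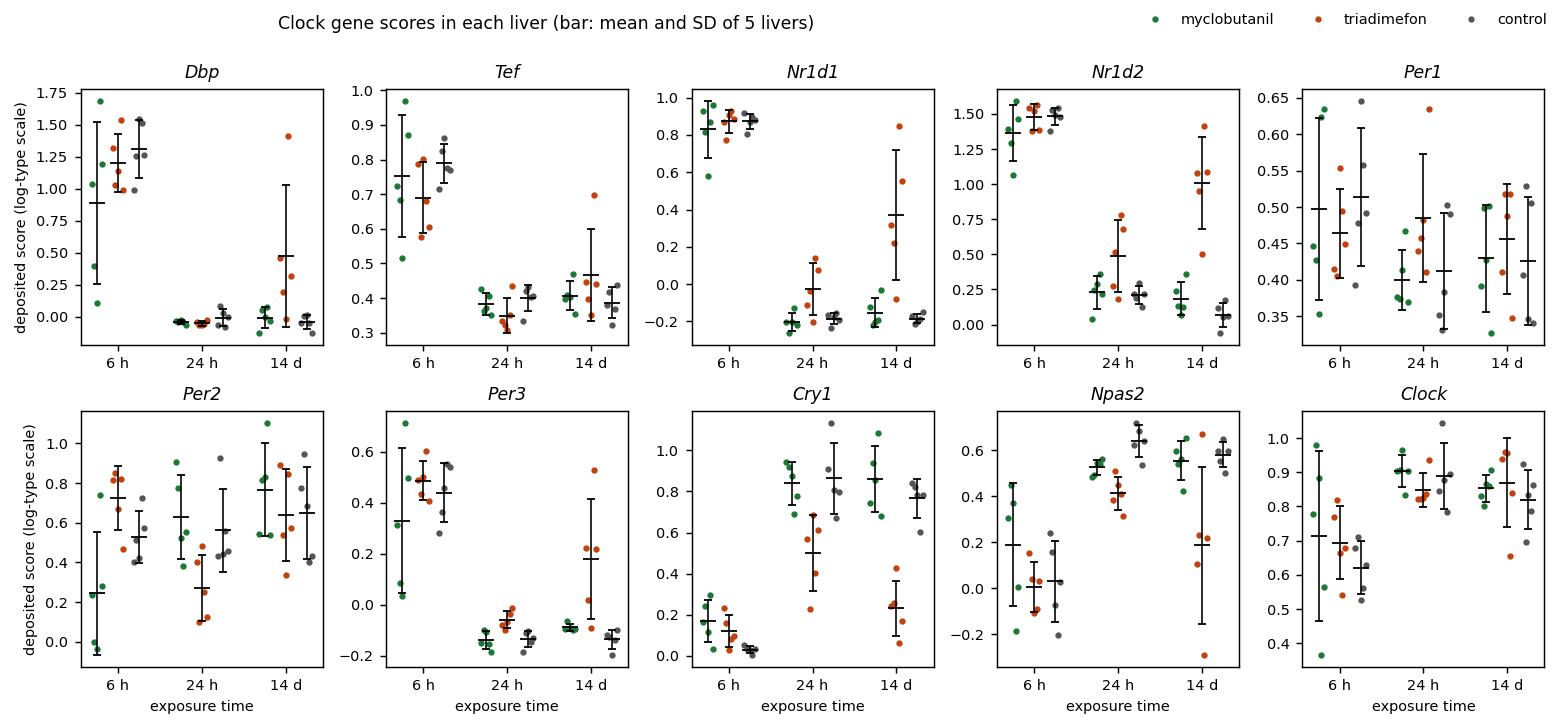
Deposited score of each clock gene (y axis, log-type scale) in every liver by exposure time (x axis), with a point per liver, and bars for the mean and SD of 5 livers. At 14 days the triadimefon livers lie above control for Nr1d1 and Nr1d2 and below it for Cry1, while the myclobutanil livers overlap the controls.

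Set against each other, the 2 treatments differed in the Nr1d genes and Cry1, with the caution that their doses differ. At 6 h 0 of 10 passed (limma), beside 0.251% of all probe sets and 2307 probe sets with an unadjusted p under 0.05. Per2 showed the widest 6 h gap, with 0.82, 0.85, 0.67, 0.82 and 0.47 in triadimefon livers, against 0.24, 0.74 and 0.28 in myclobutanil livers 1, 4 and 5 and at or just under 0 in livers 2 and 3. The groups overlapped, and the difference of 0.48 ± 0.13 had an adjusted p of 0.12. Without myclobutanil liver 4 Per2 alone passed at 6 h. These Per2 values are of the main probe set, and the group means of the second spanned only 0.12 over all 9 groups.

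At 24 h Cry1 was the only 1 of 10 genes that passed between the treatments, beside 1.06% of probe sets and 0.734% in that direction. It averaged 0.50 with triadimefon and 0.84 with myclobutanil (-0.34 ± 0.08, limma adjusted p = 0.017). That call ended without any 1 of myclobutanil livers 1 and 2 and triadimefon liver 2 (adjusted p up to 0.1), and with only the 2 groups in the fit (adjusted p = 0.095).

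At 14 days 3 of 10 genes passed (limma), beside 0.332% of all probe sets, 0.164% higher and 0.168% lower. Nr1d2 averaged 1.01 with triadimefon and 0.18 with myclobutanil, a difference of 0.83 ± 0.10 (adjusted p = 7.1e-06). Nr1d1 averaged 0.37 with triadimefon and -0.15 with myclobutanil, a difference of 0.52 ± 0.09 (adjusted p = 0.0012). Cry1 averaged 0.23 with triadimefon and 0.86 with myclobutanil, a difference of -0.63 ± 0.08 (adjusted p = 7.1e-06), and the Cry1 values of the 2 groups did not overlap. With only these 2 groups in the fit Cry1 stayed past the threshold and the receptors did not (adjusted p = 0.066 for Nr1d2 and 0.22 for Nr1d1).

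The levels over all 9 groups show the exposure times and the triadimefon livers at 14 days. Nr1d1 group means ran from 0.83 to 0.87 at 6 h and from -0.20 to -0.03 at 24 h, and at 14 days were -0.15 with myclobutanil, 0.37 with triadimefon and -0.19 in controls. Cry1 group means ran from 0.03 to 0.17 at 6 h, and were 0.84 with myclobutanil, 0.50 with triadimefon and 0.86 in controls at 24 h. Per1 varied little, with all 9 group means between 0.40 and 0.51. When the 9 groups were ordered by mean, neighbouring groups overlapped for every gene, with the exception of Per3, where myclobutanil at 14 days lay above control at 24 h.

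Livers of the same group also varied in clock genes. The SD within groups was 0.303 for Dbp, at the 99.6th percentile of all probe sets, 0.215 for Per2, 0.172 for Nr1d2 and 0.168 for Npas2. It was 0.0838 for Per1, the lowest of the 10 main probe sets, beside a median of 0.0446 over all probe sets. The second Per2 probe set had an SD of 0.0442. These deviations from the group mean do not enter the comparisons between groups except as error.

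Within groups the members varied with Dbp in both directions. The slope on Dbp, fitted with the 9 group means in limma, passed in 98 probe sets of all 31041, 0.316% (0.2% with a positive and 0.116% with a negative slope). It passed for the main probe set of 7 of the other 9 member genes. Per3 followed Dbp most closely, by 0.41 per unit of Dbp (adjusted p = 4.4e-13), with r = 0.928 and rho = 0.616 over 45 livers. Tef followed by 0.25 (adjusted p = 3.2e-07), Per2 by 0.42 (adjusted p = 0.022), Nr1d2 by 0.37 (adjusted p = 0.0038) and Nr1d1 by 0.30 (adjusted p = 0.0066). The activators ran the other way: Npas2 by -0.45 (adjusted p = 1.6e-06; r = -0.81) and Clock by -0.29 (adjusted p = 7.1e-05; r = -0.753). The second Per3 probe set did not pass (slope 0.10, limma adjusted p = 0.11), nor did the second Per2 probe set (slope 0.05, adjusted p = 0.73). The dimmest Clock probe set did not pass (slope -0.03), while the remaining Clock, Tef and Nr1d2 probe sets passed in the direction of the main ones. Per1 did not pass (slope 0.13, adjusted p = 0.23). Cry1 did not pass either (slope -0.03, adjusted p = 1; r = -0.082).

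**Figure D5:**
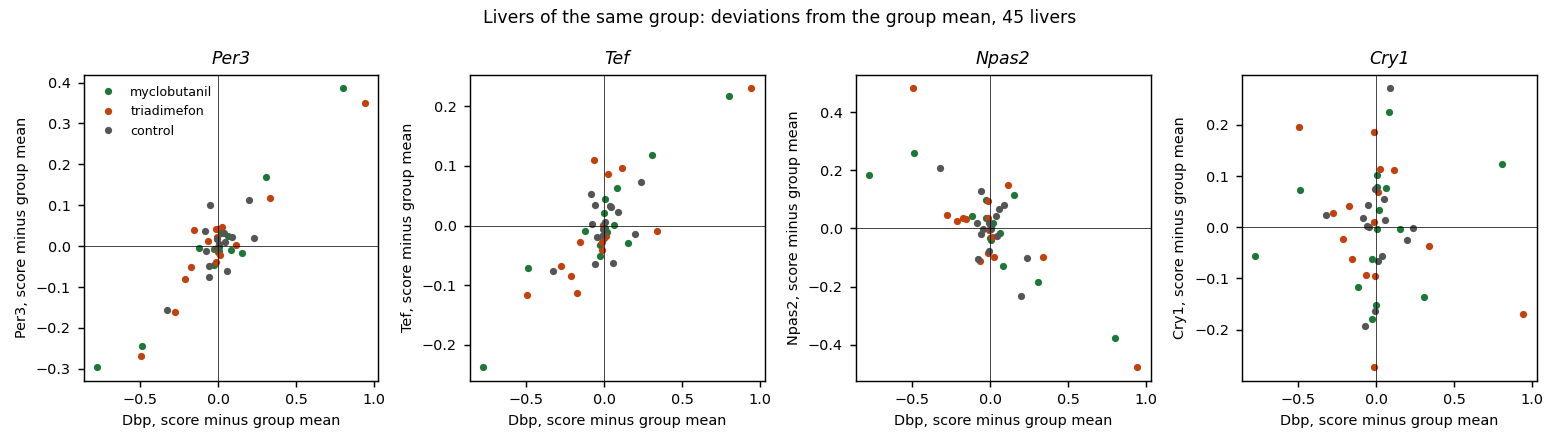
Deviation of Per3, Tef, Npas2 and Cry1 from the group mean (y axes, score units) against that of Dbp (x axis, score units), with 1 point per liver, 45 in all. Per3 and Tef rise with Dbp and Npas2 falls, with r of 0.928, 0.836 and -0.81, while Cry1 shows r of -0.082.

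The livers farthest from the middle in Dbp were triadimefon liver 4 at 14 days and myclobutanil liver 4 at 6 h. Without them r was 0.875 for Per3, 0.725 for Tef, 0.526 for both Nr1d1 and Nr1d2, 0.501 for Per2, -0.674 for Npas2 and -0.613 for Clock. In the 15 control livers alone r was 0.641 for Per3, 0.483 for Tef, 0.373 for Nr1d2, 0.374 for Per2, -0.66 for Npas2 and -0.293 for Clock, and for Nr1d1 it had the other sign, at -0.36. The rho of Nr1d1 over all livers was 0.235. These correlations describe 45 livers of 9 groups and share the array's overall scaling. Without myclobutanil liver 4 at 6 h the count of 98 became 32, and without triadimefon liver 4 at 14 days it became 52.

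Of non-member genes, Bmal1, the partner of CLOCK and NPAS2, ran most strongly against Dbp, with r = -0.875 over 45 livers (slope -0.40, limma adjusted p = 3e-09) and r = -0.506 in the 15 controls. Below it came Tubb2a, a tubulin (r = -0.758), Stat5b, a transcription factor of growth hormone signalling (-0.675), Slc16a1, a lactate carrier (-0.66), and Clpx, a mitochondrial protease subunit (-0.65). In the 15 controls alone these stood at r = -0.582 for Tubb2a, -0.176 for Stat5b, -0.213 for Slc16a1 and -0.028 for Clpx, and without the 2 farthest livers at -0.584, -0.512, -0.398 and -0.45 in the same order. On the positive side stood Hsd17b2, a steroid dehydrogenase (r = 0.826), Usp2, a ubiquitin protease (0.757), Gpr146 (0.739), Ankrd46 (0.73) and Arhgef26 (0.692), with r from 0.322 for Arhgef26 to 0.746 for Usp2 in the controls alone. These were the 5 highest and 5 lowest among 9489 genes of mean score above the median, of which the middle 95% had r between -0.356 and 0.361.

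Of 20 partners of the loop that are not members, 16 were measured. In controls at 24 h against 6 h, 3 were higher and 0 lower, beside 2.04% and 0.741% of all probe sets: Bmal1 by 0.67 ± 0.08 (limma adjusted p = 2.6e-06), Rora, an activator at ROR elements, by 0.43 ± 0.06 (adjusted p = 2.9e-06), and Nfil3, a repressor at D-boxes, by 0.45 ± 0.11 (adjusted p = 0.015). The same 3 were higher at 14 days against 6 h, where Timeless was lower (-0.21 ± 0.06, adjusted p = 0.037). With triadimefon at 24 h 0 were higher and 2 lower, Cry2 (-0.16 ± 0.05, adjusted p = 0.029) and Btrc, a subunit of a ubiquitin ligase that acts on PER proteins (-0.07 ± 0.02, adjusted p = 0.034), 2 of 16 beside 5.75% of all probe sets lower. With myclobutanil at 24 h Timeless was higher by 0.35 ± 0.06 (adjusted p = 8.9e-05) and Btrc lower (-0.07 ± 0.02, adjusted p = 0.037), 2 of 16 beside 8.47% of all probe sets in either direction. With triadimefon at 14 days 1 was higher and 0 lower, beside 3.89% and 2.8% of all probe sets: Btrc, by 0.07 ± 0.02 (adjusted p = 0.021). Bmal1 averaged 0.40 with triadimefon at 14 days and 0.65 in controls, a difference of -0.25 ± 0.08 that did not pass (adjusted p = 0.064).

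Of 29 liver genes known as clock outputs, 25 were measured. In controls at 24 h against 6 h, 6 were higher and 0 lower, beside 2.04% higher and 0.741% lower of all probe sets. The higher ones, with adjusted p from 8e-06 to 0.046, were Insig2, Slc45a3, Tfrc, Cdkn1a, Leo1 and Avpr1a. In controls at 14 days against 6 h, 2 were higher and 2 lower, beside 1.19% and 2.15% of all probe sets. At 6 h with triadimefon 3 were higher and 1 lower, beside 0.915% of all probe sets in either direction. With myclobutanil 3 were higher and 0 lower, beside 0.38%. Higher with both were Por, the electron donor of cytochromes P450 (0.66 ± 0.17 with triadimefon and 0.70 ± 0.17 with myclobutanil), Alas1, the first enzyme of haem synthesis (0.81 ± 0.17 and 0.94 ± 0.17), and Insig2, a regulator of sterol synthesis (0.56 ± 0.13 and 0.91 ± 0.13). Their limma adjusted p ran from 4.9e-05 to 0.048. At 24 h with triadimefon 3 were higher and 5 lower, beside 2.24% and 5.75% of all probe sets. With myclobutanil 4 were higher and 5 lower, 9 of 25 beside 8.47% of all probe sets in either direction. Among the lower ones were Cyp7a1, the first enzyme of bile acid synthesis (-1.34 ± 0.27 with triadimefon and -1.60 ± 0.27 with myclobutanil), and Cyp8b1, which makes cholic acid and averaged 1.47 with triadimefon and 0.87 with myclobutanil, against 2.47 in controls. At 14 days 0 were higher and 0 lower with either compound, beside 6.69% of all probe sets with triadimefon and 0.792% with myclobutanil.

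Genes that follow glucocorticoids, feeding and temperature were read in the same livers because they are known to vary with the hour or with the animal's state. With triadimefon at 6 h, 0 of 13 glucocorticoid-responsive and 0 of 15 feeding and fasting genes measured were called, and of 9 temperature-responsive genes 4 were higher and 2 lower, beside 0.915% of all probe sets. The lower ones were the cold-induced RNA-binding proteins Rbm3 (-0.34 ± 0.05, limma adjusted p = 0.00036) and Cirbp (-0.19 ± 0.03, adjusted p = 0.00037), and the higher ones Hspa1a, Hsph1, Stip1 and Ahsa1, of the heat shock response, with differences from 0.30 to 0.62. Hspa1a was also higher with myclobutanil at 6 h (0.43 ± 0.10, limma adjusted p = 0.039). The other temperature-responsive genes were not called there, beside 0.38% of all probe sets called. With triadimefon at 24 h, where 5.75% of all probe sets were lower and 2.24% higher, 0 of 13 glucocorticoid-responsive genes were called and 3 of 15 feeding and fasting genes were lower (Srebf1, Scd and Acly, of fat synthesis). Of the 9 temperature-responsive genes 2 were higher, Hsph1 and Dnajb1, and 1 was lower, Rbm3 (-0.17 ± 0.05, adjusted p = 0.047). With triadimefon at 14 days, where 3.89% of all probe sets were higher and 2.8% lower, 2 of the glucocorticoid-responsive genes were higher and 0 lower. They were the metallothioneins Mt1 (0.50 ± 0.09, limma adjusted p = 0.00029) and Mt2A (1.65 ± 0.30, adjusted p = 0.00067). Mt2A averaged 2.62 with triadimefon at 14 days and 0.97 in controls of that time, beside 2.53 in controls at 6 h. The list also holds Per1. Of the feeding and fasting genes 0 were higher and 1 lower, Angptl4, an inhibitor of lipoprotein lipase (-0.73 ± 0.16, adjusted p = 0.005). Of the temperature-responsive genes 2 were higher and 0 lower, Rbm3 (0.31 ± 0.05, adjusted p = 0.00031) and Cirbp (0.14 ± 0.03, adjusted p = 0.0051), both of which were lower at 6 h. The triadimefon difference was more positive at 14 days than at 24 h for Rbm3, by 0.48 ± 0.08 (adjusted p = 0.00012), and for Cirbp, by 0.21 ± 0.04 (adjusted p = 0.002), while between 24 h and 6 h neither passed (adjusted p = 0.23 and 0.12). In controls, 3 of the 13 glucocorticoid-responsive genes, Klf9, Mt1 and Mt2A, were lower both at 24 h and at 14 days than at 6 h. Of all probe sets 2.78% were called at 24 h and 3.33% at 14 days. At 24 h against 6 h the feeding gene Cpt1a was also lower (-0.60 ± 0.16, limma adjusted p = 0.026). The temperature-responsive gene Ahsa1 was higher there (0.23 ± 0.06, limma adjusted p = 0.022). With myclobutanil at 24 h, where 8.47% of all probe sets were called, 2 of the 13 were lower, 0 of the feeding and fasting genes were called, and 4 temperature-responsive genes were higher and 1 lower. The part of these genes in the clock gene differences was not tested.

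Other cell types were read in the same way. With triadimefon at 14 days the mean score of 7 endothelial markers was 1.19 to 1.22 over the 5 livers, against 1.07 to 1.15 in controls, and 1 of the 7 passed as higher. The mean of 6 bile duct markers, of which 2 had a mean above 0, was 0.07 to 0.13, against -0.03 to 0.05 in controls, and 1 of the 6 was higher. That marker was Epcam (0.54 ± 0.06, limma adjusted p = 8.9e-08). Epcam was also higher with myclobutanil at 14 days (0.44 ± 0.06, limma adjusted p = 2e-05). The hepatocyte mean was 3.75 to 4.16 against 3.83 to 4.41, and the macrophage mean of 9 markers 1.21 to 1.37 against 1.20 to 1.44, with 0 members called in either list. With triadimefon at 24 h the endothelial mean was 1.04 to 1.19 against 1.09 to 1.39 with 0 of 7 called, and 1 of 10 stellate cell and fibroblast markers passed as lower, Pdgfrb, a growth factor receptor (-0.14 ± 0.04, limma adjusted p = 0.021). In controls at 24 h against 6 h Pdgfrb was higher (0.23 ± 0.04, adjusted p = 0.00038), and it was the only cell type marker called there. The mean of the 10 markers was 0.53 to 0.65 with triadimefon at 24 h, against 0.55 to 0.79 in controls at 24 h, beside 0.53 to 0.72 in controls at 6 h. Epcam and Pdgfrb are named after their values were seen. The part of these markers in the clock gene differences was not tested. All arrays at 24 h, and all triadimefon and control arrays at 14 days, carried the same file-name ending, 11, so the 24 h and 14-day triadimefon values above stand within 1 kind of array file. At 6 h, myclobutanil livers 3, 4 and 5 and triadimefon livers 1, 2 and 3 carried ending 12, and no control did. Treatment and ending are therefore partly mixed at 6 h. The 6 h calls of listed non-member genes were not repeated by ending. Of the 6 h controls 2 of 5 carried other endings, and with arrays of ending 11 alone the counts of clock genes called between controls were 8 at 24 h against 6 h and 7 at 14 days against 6 h. With the ending as a covariate both counts were 7, Clock being lost at 24 h against 6 h.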

How the data were processed

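Liver RNA of 45 arrays (9 groups of 5) was read from the deposited series table, whose values are scores as deposited by the authors, 1 per probe set and array. How the authors summarised and normalized them, and the base of the logarithm, is not given in the sources used here. The scores run from -0.98 to 5.69, and array medians lie between -0.011 and 0.033. Of 31099 rows, 57 control probe sets were left out. Gene symbols came from the platform annotation: 20826 probe sets name 1 gene, 436 several and 9780 none. Arrays have no read depth, and their number limits the precision.

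The deposited scores were fitted in limma 3.58.1 (R 4.3.3) with 9 group means over 45 arrays and Benjamini-Hochberg adjustment over 31042 probe sets, called at 0.05. The tests were checked on simulated data in which each probe set had the same spread in all groups. Groups of unequal spread were not simulated. Named genes are all members, up to 4 called genes of each list per treatment comparison, some of which are printed, and the 5 highest and 5 lowest correlates of Dbp. The pathway lists had 93 entries, of which 78 were matched, and the cell type markers 66, of which 55 were matched. The members and lists were chosen with earlier results of these data known. Alternatives were quantile normalization, a filter on dim probe sets, any probe set of a gene, only the groups compared, the replicate number as a block, the array file-name ending, and each array left out in turn.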

Additional observations from a re-analysis of the deposited data

Results flagged for a closer look

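In 5 of the 90 sets of 5 livers (10 genes in 9 groups), 1 liver stood far from the other livers of its group, and chance alone would do this in about 1 of 20 sets. Tef was 0.70 in triadimefon liver 4 at 14 days, where the other livers ran from 0.35 to 0.45. Clock was 0.94 in triadimefon liver 5 at 24 h, where the others ran from 0.82 to 0.84. Per3 was -0.06 in myclobutanil liver 2 at 14 days, where the others ran from -0.10 to -0.09. Cry1 was 0.60 in control liver 4 at 14 days (others 0.78 to 0.84), and Per2 was 0.93 in control liver 2 at 24 h (others 0.43 to 0.56).

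The triadimefon difference changed between times in 3 genes by the interaction in limma. It moved by -0.45 for Cry1 at 24 h against 6 h (adjusted p = 0.015), by 0.40 for Nr1d1 at 14 days against 24 h (adjusted p = 0.026) and by 0.66 for Nr1d2 at 14 days against 24 h (adjusted p = 0.0033). That is 1 of 10 genes at 24 h against 6 h, beside 3.13% of all probe sets. At 14 days against 24 h it is 2 of 10, beside 12.7%. The Cry1 and Nr1d1 calls did not hold in every repeat. For Dbp all 5 triadimefon livers were above the control mean at 14 days and all 5 below it at 24 h. The difference of 0.56 between the times did not pass in limma (adjusted p = 0.14).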

How the results depend on the processing

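The 28 gene calls between groups were repeated 478 times with 1 choice changed or 1 array left out; 454 repeats kept the call, 24 lost it and 0 turned sign. Of the 28 calls, 23 held whichever array was left out. With only the groups compared in the fit, the number of clock genes called became 3 for triadimefon against control at 14 days, 0 for triadimefon against myclobutanil at 24 h, 1 for the same at 14 days, 0 for the triadimefon effect at 24 h minus 6 h and 1 for that at 14 days minus 24 h. The count for the triadimefon effect at 24 h minus 6 h was also 0 with the file-name ending as a covariate and 0 with arrays of ending 11 alone. Counting any probe set of a gene gave 2 for triadimefon against control at 24 h. The 98 probe sets that track Dbp became 297 after quantile normalization, 46 with the replicate block and 19 with arrays of ending 11 alone. With 1 array left out the counts ran from 1 to 2 for triadimefon against control at 24 h (2 without triadimefon liver 3) and from 3 to 6 at 14 days (3 without triadimefon liver 4). They ran from 0 to 1 for triadimefon against myclobutanil at 6 h and at 24 h, from 3 to 4 at 14 days, from 1 to 2 for the triadimefon effect at 14 days minus 24 h, from 7 to 8 for controls at 24 h against 6 h, and from 32 to 137 for the probe sets that track Dbp, moved most by triadimefon liver 4 at 14 days and myclobutanil liver 4 at 6 h. The replicate block ended 0 of the 28 gene calls. Whether the replicate numbers pair the samples was not tested. Deviations of same-numbered livers of different groups had a median r of 0.049 over 180 pairs, of which 70 were over 0.1. The median was -0.010 over 720 other pairs, of which 185 were over 0.1. Why calls were lost was not tested. A fit with only the groups compared has fewer arrays and also takes its spread from those groups alone. The main fit shares its spread over all groups, with a within-group SD of 0.141 for Nr1d1. Triadimefon livers at 14 days were spread more widely in Nr1d1 than their controls, which the shared ± does not show.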
